A study of Mus musculus with 23 samples.

Results

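Cells labelled as Jarid2 knockout (KO) and Ezh2 knockout were compared directly. They were blood stem and progenitor cells of untransplanted mice, from the baseline libraries of a droplet single-cell study. The comparison took the 2 Jarid2 KO and the 2 Ezh2 KO gene-expression libraries, which are 4 of the 23 samples of the series. Gene UMI counts (unique molecular identifiers, 1 per captured transcript) were summed per library over barcodes that passed 3 limits: 1000 UMIs or more, 500 genes or more, and a mitochondrial share of UMIs no higher than 10%. This left 34847 cells of 78945 in the 11 gene-expression libraries: 7783 male and 7532 female Jarid2 KO cells, and 9491 male and 10041 female Ezh2 KO cells.

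The mice carried Mx1-Cre, an interferon-inducible Cre driver, with floxed Jarid2 (written Jarid2fl/fl) or floxed Ezh2 (written Ezh2fl/fl), and the labels give Mx1-Cre for the Controls as well. The sources used here do not give whether the Controls carried a floxed allele, how many mice entered a library or when Cre was induced. Baseline mice were 2 months old, and each genotype (Jarid2_KO, Ezh2_KO, Control) has 1 male and 1 female library. The cells were c-Kit+, Sca1+, lineage-negative bone marrow cells (KSL), also stained with 6 barcoded antibodies. A second experiment profiled KSL cells from recipients 18 weeks after transplantation of 500000 donor marrow cells, with 2 Jarid2 KO libraries, 2 Ezh2 KO libraries and 1 Control. Nothing in the labels says that a group's libraries came from separate litters, so the p-values measure only the spread between these libraries, which differ in sex at baseline. The main baseline fit holds a term for sex. Its spread is what remains once a male-female difference common to the genotypes is taken out.

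Polycomb repressive complex 2 (PRC2) methylates histone H3 at lysine 27, a mark of silenced genes. Ezh2 is its main catalytic subunit in dividing cells and Jarid2 an accessory subunit that helps bring the complex to its targets. KSL cells hold the blood stem cells and the earliest multipotent progenitors, from which the myeloid and lymphoid lineages branch, and PRC2 is known to act in early B-cell development.

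Kept UMIs per baseline library ranged from 92105257 to 143133494, so counting error alone has a relative SD of 2.64% to 3.30% at 10 CPM (counts scaled by TMM-normalised library size). Kit, the receptor that defines the gate, was at 249 to 295 CPM and Ly6a, which encodes Sca1, at 49.1 to 73.9 CPM in the 6 baseline libraries. The T-cell lineage markers Cd3e and Cd8a were at 0.269 CPM or below in these libraries. The 7 tested genes for lineage markers of the sort, however, summed to 210 to 238 CPM. Xist and 4 Y-linked genes matched the labelled sex of every baseline library. Pairs of libraries shared 5 to 34 cell barcodes.

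Across 18357 genes tested with edgeR's quasi-likelihood test, with sex as a block and Benjamini-Hochberg adjustment, 1186 (6.46%) passed an adjusted p (FDR) of 0.05. Ezh2 KO cells had the larger share: 871 genes (4.74%) were higher in Ezh2 KO and 315 (1.72%) were higher in Jarid2 KO. The median log2 fold change, Jarid2 KO minus Ezh2 KO, was 0.01 over all genes tested. CPM of the groups did not overlap for 9720 genes (52.9%), so a lack of overlap alone is common here. Leaving out the male Jarid2 KO library left 0 calls in edgeR, with 2511 genes at an unadjusted p under 0.05 (DESeq2 was not run on that subset). Removing the female Jarid2 KO library left 320 calls, and removing the male Ezh2 KO library left 305. In these fits the group's lone library is assumed to vary like the others. No member of any gene list described below was called without the male Jarid2 KO library. Without the sex term 87 genes passed. Part of the spread was shared between libraries of the same sex, as over 9146 genes the male-minus-female deviations of the Jarid2 KO and Ezh2 KO pairs correlated at r = 0.337. Sex cannot be told apart here from anything else that same-sex libraries have in common.

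**Figure D1:**
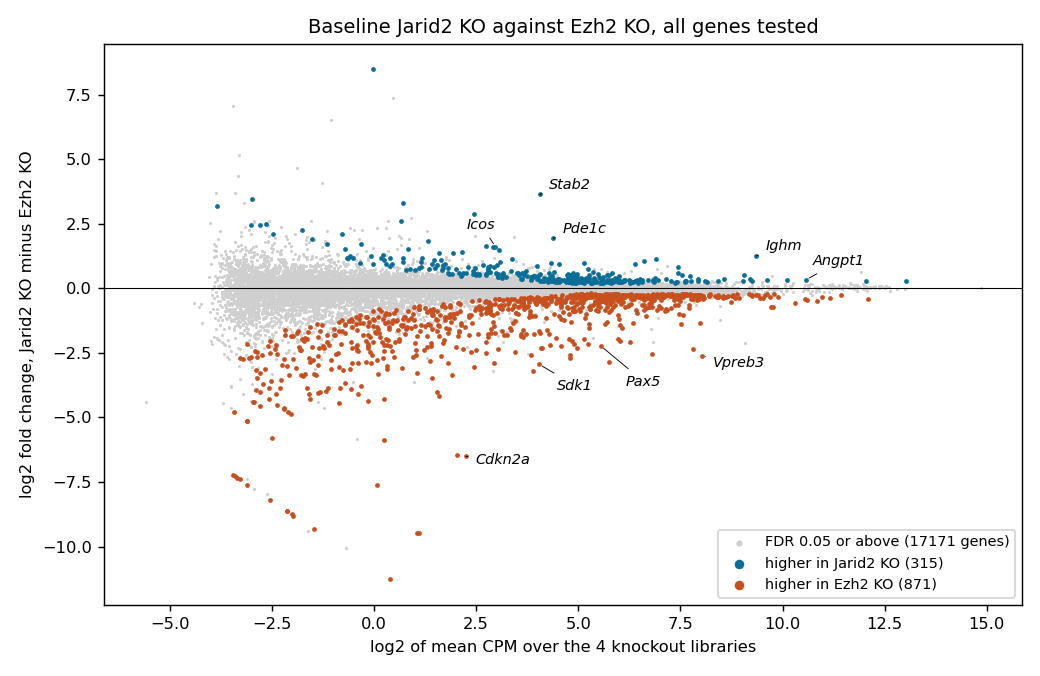
Log2 fold change (Jarid2 KO minus Ezh2 KO, y axis) against the log2 of the mean CPM over the 4 knockout libraries (x axis), 1 point per gene tested. Orange points are the 871 genes higher in Ezh2 KO, blue points the 315 higher in Jarid2 KO and grey points the 17171 genes not called. Cdkn2a lies at -6.51 and Stab2 at 3.64.

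The targeted transcripts were examined first. Jarid2 (chr13:44730774-44921643 in RefSeq's annotation of GRCm38.p6, the assembly also called mm10, which the submitters' processing notes list) was at 214 and 204 CPM in the male and female Jarid2 KO libraries, against 137 and 142 CPM in Ezh2 KO and 155 and 148 CPM in Control. Its transcript was thus higher in the libraries labelled Jarid2 KO, by 0.59 ± 0.05 (log2, SE) against Ezh2 KO (edgeR FDR = 0.0147). Ezh2 (chr6:47530274-47595270) was at 191 and 199 CPM in Jarid2 KO, 166 and 152 CPM in Ezh2 KO, and 205 and 192 CPM in Control. The Ezh2 KO libraries were the lowest, but the difference of 0.30 ± 0.06 did not pass (FDR = 0.0543). It passed at a nearly equal size in DESeq2, with no filter on low counts and when only genes with a mean of at least 10 CPM were tested, and did not pass with any 1 library left out. It was 0.46 (FDR = 0.0177) without the cells that carry B-lineage transcripts, which are counted further on, and 0.72 (FDR = 0.00453) in those cells alone. In the transplant libraries, described further on, Ezh2 was at 181 and 177 CPM in Jarid2 KO, 39.2 and 45.3 CPM in Ezh2 KO and 191 CPM in Control (2.08 ± 0.12, FDR = 0.000412), and the difference from baseline passed (FDR = 0.000805). The Ezh2 transcript was thus far lower in the libraries labelled Ezh2 KO after transplantation than at baseline. The experiments were counted with different versions of the counting software, and the part of that was not tested. Jarid2 in Control was at 40.1 CPM after transplantation, well below its baseline values. Jarid2 was again higher in the libraries labelled Jarid2 KO there, at 60.2 and 54.1 CPM against 41.4 and 44.0 CPM in Ezh2 KO (FDR = 0.0349). No source used here names the deleted exons, and these libraries read the 3′ ends of transcripts, so whether the Jarid2 level bears on its deletion was not tested, and libraries are named as labelled throughout.

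The other PRC2 and PRC1 genes moved little. Of 6 core PRC2 genes, Ezh1, the alternative catalytic subunit, was higher in Jarid2 KO (0.27 ± 0.05, FDR = 0.0478) and Rbbp4, a histone-binding subunit, was higher in Ezh2 KO (-0.25 ± 0.04, FDR = 0.0384). The values of Eed and Suz12, the scaffold subunits, were -0.10 and -0.08 (FDR = 0.172 and 0.326). Neither core call held when any 1 knockout library was left out. Jarid2 itself was the 1 member called among 12 tested accessory genes. Among 20 PRC1 genes Bmi1, a core PRC1 subunit known for stem cell self-renewal, was the 1 called. Bmi1 was at 19.8 and 19.7 CPM in Jarid2 KO, 33.6 and 32.6 CPM in Ezh2 KO, and 18.5 and 18.8 CPM in Control. The Ezh2 KO libraries stood above both other genotypes, with a log2 difference between the knockouts of -0.74 ± 0.05 (FDR = 0.0102).

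Apart from the B-lineage cell panel described further on, the list with the largest median difference held genes of early B-cell development. Of 25 B-lineage genes tested, 12 were higher in Ezh2 KO, 1 was higher in Jarid2 KO and 12 were not called, with a median of -1.83. The genes include Vpreb3 and those of the surrogate light chain (Vpreb1, Vpreb2, Igll1), which pairs with the heavy chain in the pre-B-cell receptor. Vpreb3 was at 64.0 and 71.5 CPM in Jarid2 KO, 572 and 330 CPM in Ezh2 KO, and 160 and 52.5 CPM in Control. Both Ezh2 KO libraries exceeded all others, and the male exceeded the female in Ezh2 KO and in Control. The knockouts differed by -2.61 ± 0.41 for Vpreb3 and by -2.55 ± 0.39 for Igll1 (FDR = 0.0357 and 0.0344). Vpreb1 (-2.33) and Vpreb2 (-2.69) went the same way, though they are near-identical copies whose reads the counting may have split.

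B-lineage transcription factors and signalling genes followed. Pax5, which fixes B-cell identity, was at 17.5 and 13.6 CPM in Jarid2 KO against 103 and 52.6 CPM in Ezh2 KO (-2.23 ± 0.36, FDR = 0.0358), and its Control values of 36.1 and 9.33 CPM straddled the Jarid2 KO range. Cd79b, a receptor signalling chain, differed by -1.41, and Blnk, an adaptor below the receptor, by -2.03. Rag2 (recombination of receptor genes, -1.59), Lef1 (-1.96), Pou2af1 (-1.77) and Bst1 (-2.45) were also called. Ebf1, the factor that starts the B-cell program, was at 182 and 182 CPM in Jarid2 KO against 1200 and 593 CPM in Ezh2 KO, yet its difference of -2.13 did not pass (FDR = 0.0535). This list rests on single libraries: 13 members were called with all libraries, 0 without the male Jarid2 KO library, 0 without the male Ezh2 KO library, 6 without the female Ezh2 KO library, 17 with the female Jarid2 KO library left out and 18 without either Control.

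The upstream sequences of a few of these genes are shown because Vpreb1 and Igll1 moved together, Cdkn2a stood far higher in Ezh2 KO, and Stab2 led the genes higher in Jarid2 KO. Each is the 250 bases before a RefSeq start (build GRCm38.p6, minus strand), with CG dinucleotides, which dense Polycomb targets often carry in clusters, in capitals. The Stab2 window lies before 1 of that gene's starts and reaches into the gene span given further on, whose edge is further upstream.

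Vpreb1, chr16:16869256-16869505: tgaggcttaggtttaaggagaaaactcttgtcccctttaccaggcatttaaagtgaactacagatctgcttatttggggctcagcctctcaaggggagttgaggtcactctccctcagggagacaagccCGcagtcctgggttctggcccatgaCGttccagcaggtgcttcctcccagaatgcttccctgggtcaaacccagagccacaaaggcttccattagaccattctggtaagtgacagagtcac

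Igll1, chr16:16863986-16864235: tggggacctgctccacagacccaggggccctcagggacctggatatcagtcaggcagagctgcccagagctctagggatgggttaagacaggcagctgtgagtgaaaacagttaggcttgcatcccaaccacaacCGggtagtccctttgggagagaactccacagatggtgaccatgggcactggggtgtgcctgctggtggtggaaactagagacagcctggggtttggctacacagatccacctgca

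Cdkn2a, first start, chr4:89294620-89294869: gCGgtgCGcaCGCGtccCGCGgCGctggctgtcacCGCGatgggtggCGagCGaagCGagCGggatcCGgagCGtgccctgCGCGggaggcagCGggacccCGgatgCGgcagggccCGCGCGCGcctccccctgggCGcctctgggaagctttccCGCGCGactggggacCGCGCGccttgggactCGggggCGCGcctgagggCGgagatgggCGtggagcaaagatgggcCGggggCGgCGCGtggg

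Cdkn2a, second start, chr4:89282193-89282442: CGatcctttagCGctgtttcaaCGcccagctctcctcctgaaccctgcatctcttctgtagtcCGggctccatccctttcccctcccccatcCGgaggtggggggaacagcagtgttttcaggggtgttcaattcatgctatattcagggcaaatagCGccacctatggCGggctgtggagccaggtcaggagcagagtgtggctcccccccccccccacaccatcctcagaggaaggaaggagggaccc

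Stab2, chr10:87007943-87008192: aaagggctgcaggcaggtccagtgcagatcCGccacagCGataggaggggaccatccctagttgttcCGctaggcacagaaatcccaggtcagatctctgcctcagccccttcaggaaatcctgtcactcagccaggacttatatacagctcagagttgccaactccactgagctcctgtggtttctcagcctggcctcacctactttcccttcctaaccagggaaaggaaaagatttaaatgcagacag

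The first Cdkn2a window held 40 CG dinucleotides and the second 7, against 2 for Vpreb1, 1 for Igll1 and 3 for Stab2. Over 32851 windows of the same length the median was 6 (quartiles 2 to 16), and 92.1% held at least 1. Windows could be matched for 13044 of 18357 genes tested (71.1%) and for 13 of 25 B-lineage genes. This is below the 80% needed, so a comparison of promoter letters between lists is void and none is given.

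A list of early lymphoid genes was examined next. Of 22 tested, 4 were higher in Ezh2 KO (Dntt, Ighd, Satb1 and Il7r), 0 were higher in Jarid2 KO and 18 were not called, with a median of -0.16. Ighd, an immunoglobulin gene described further on, is not a gene of cells before B-cell commitment. Dntt, the polymerase that adds bases at receptor joints, was at 172 and 116 CPM in Jarid2 KO, 442 and 291 CPM in Ezh2 KO, and 284 and 164 CPM in Control. The Control range lay across the upper Jarid2 KO value and reached close to the lower Ezh2 KO value. The difference was -1.35 ± 0.07 (FDR = 0.00586). Il7r, the interleukin-7 receptor chain, differed by -1.37 and Satb1, a chromatin organiser, by -0.49. Without either Control library 7 early lymphoid genes were called. Arpp21, among the 5 genes with the smallest FDR in its direction, was at 125 and 73.5 CPM in Ezh2 KO against 44.6 and 24.5 CPM in Jarid2 KO (-1.54 ± 0.07, FDR = 0.00547).

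Among called genes with a mean of at least 10 CPM, the others with the largest differences toward Ezh2 KO were Rnase12 (-3.20), Sdk1 (an adhesion molecule, -2.94), Tmem108 (-2.87), Gfra1 (a receptor for glial-derived growth factors, -2.59), Chst3 (a sulfotransferase, -2.46), Ifi27l2a (interferon-induced, -2.31) and Sorcs2 (-2.31). Sdk1 was at 4.30 and 3.20 CPM in Jarid2 KO, 36.3 and 22.2 CPM in Ezh2 KO, and 4.42 and 3.27 CPM in Control. Control matched Jarid2 KO there, and the difference between knockouts was -2.94 ± 0.10 (FDR = 0.00378). Tmem108 was at 12.2 and 13.1 CPM in Jarid2 KO against 115 and 76.9 CPM in Ezh2 KO (FDR = 0.0208). Without the B-lineage panel cells, counted further on, Rnase12 (-0.88), Sdk1 (-0.26), Gfra1 (-1.86), Chst3 (-1.69) and Sorcs2 (-0.95) did not pass, and 84.1% to 98.9% of their counts in the Ezh2 KO libraries lay in those cells. Tmem108 (-1.24, FDR = 0.0324) and Ifi27l2a (-1.64, FDR = 0.0136) passed without them.

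**Figure D2:**
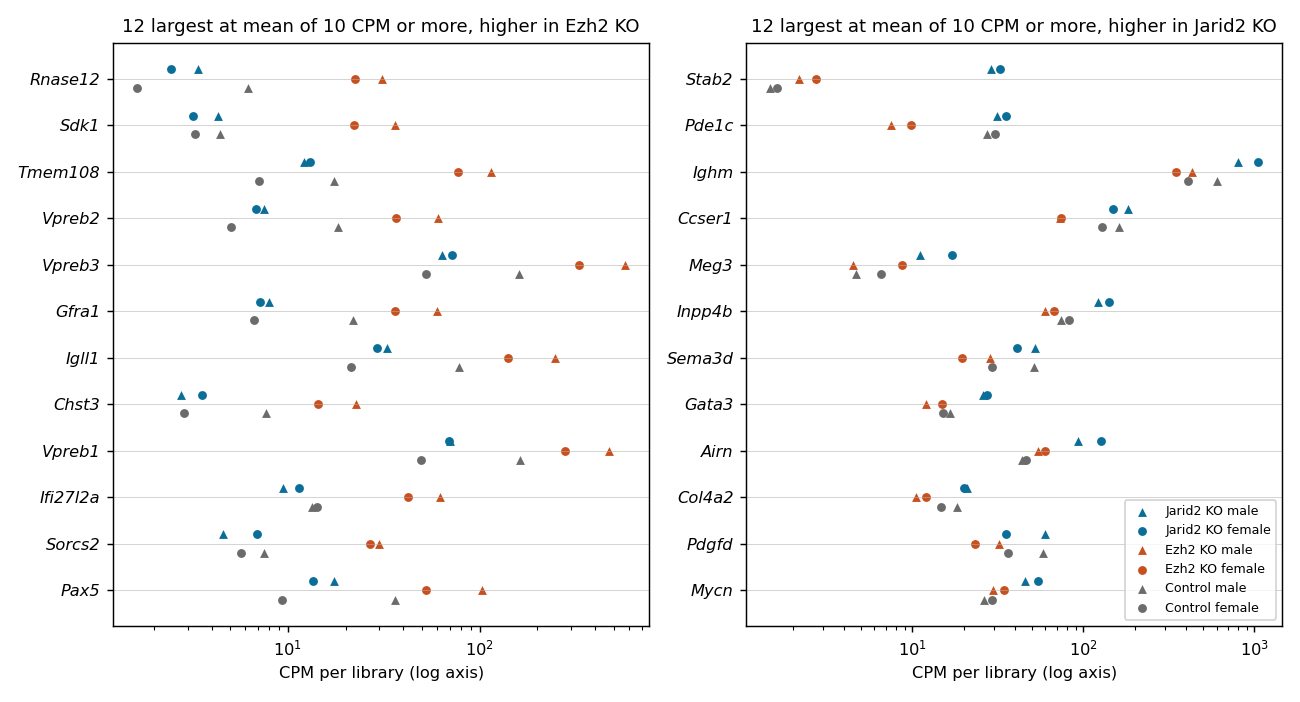
CPM per library on a log axis for the 12 genes with the largest called difference in each direction among those with a mean of at least 10 CPM and an established symbol, with Jarid2 KO in blue, Ezh2 KO in orange and Control in grey, triangles for male and circles for female libraries. The Ezh2 KO points lie right of the Jarid2 KO points in every row on the left and left of them in every row on the right, which the rule for choosing these genes requires.

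Because B-lineage transcripts moved so much, cells carrying them were counted. A cell was counted when it held at least 3 UMIs of 10 panel genes (among them Vpreb1, Vpreb2, Vpreb3, Igll1, Cd79a, Cd79b, Ebf1, Pax5 and Rag1) after thinning to 5000 UMIs, which left out 464 to 731 shallower cells per knockout library. The share was 3.56% (95% exact binomial interval 3.15 to 4.02) in male and 3.95% (3.51 to 4.43) in female Jarid2 KO cells. It was 21.0% (20.2 to 21.9) in male and 11.8% (11.1 to 12.4) in female Ezh2 KO cells, and 7.76% and 2.48% in Control. Both Ezh2 KO shares lay above all others, at 16.4% ± 6.51 against 3.75% ± 0.276 (SD, n = 2 each), a ratio of 4.37. The exact two-sided permutation p was 0.333, the smallest that 2 against 2 libraries can give. Unthinned shares were 5.06% and 6.28% in Jarid2 KO and 29.2% and 16.2% in Ezh2 KO. Among cells with megakaryocyte or erythroid transcripts, which should lack these genes, the share in the 6 libraries was 0% to 2.56%, with a median depth of 22890 to 38846 UMIs before thinning against 12285 to 16166.5 in the panel cells. The intervals cover counting error only. Cells with exactly 2 or 3 panel UMIs, next to the cut-off, made up 1.52% to 3.70% of the knockout cells.

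Removing every panel cell (394 and 473 cells in Jarid2 KO, 2767 and 1622 in Ezh2 KO, unthinned) reduced the calls from 1186 to 143, or 0.799% of 17899 genes, with 33 higher in Jarid2 KO and 110 higher in Ezh2 KO. Of those, 134 were also called with all cells. The median over the 871 genes higher in Ezh2 KO moved from -0.74 to -0.28, and over the 315 higher in Jarid2 KO from 0.41 to 0.28. In summed libraries, a larger number of cells of a type and more RNA per cell cannot be told apart. The B-lineage list itself moved to a median of -1.02 with 3 members called, but it shares genes with the panel, so its level in the remaining cells is partly set by the choice of cells. Called members went from 4 to 2 for early lymphoid genes, from 6 to 4 for T-cell and innate lymphoid genes, from 7 to 3 for monocyte and macrophage genes, and from 3 to 1 each for the dendritic, Hox and Myc-family lists.

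Within the panel cells alone, 717 of 13572 genes (5.28%) were called, 348 higher in Jarid2 KO and 369 higher in Ezh2 KO. Both this comparison and the one below on immunoglobulin genes were chosen after the data had been seen. Sdk1 kept its difference there (-2.63, FDR = 0.000455), whereas Dntt (-0.07) and Pax5 (-0.32) did not pass. Pax5 is a panel gene, so its level in these cells is partly set by the choice of cells.

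Ighm, the heavy chain of IgM, was the 1 B-lineage gene called higher in Jarid2 KO over all cells: 797 and 1050 CPM in Jarid2 KO, 431 and 348 CPM in Ezh2 KO, and 601 and 411 CPM in Control (1.26 ± 0.22, FDR = 0.0431). In the panel cells it was at 11700 and 15200 CPM in Jarid2 KO, 1140 and 1500 CPM in Ezh2 KO, and 4190 and 7000 CPM in Control. All genotypes separated there, with a difference between knockouts of 3.35 (FDR = 1.62e-05). In the remaining cells Ighm was at 103 and 120 CPM in Jarid2 KO and at 105 CPM in both Ezh2 KO libraries (0.08, FDR = 0.58). Ighd, the heavy chain of IgD and 1 of the 4 early lymphoid genes called, was on the other side: at most 1.98 CPM in either Jarid2 KO library against 8.66 and 4.52 CPM in Ezh2 KO over all cells (-1.86 ± 0.16, FDR = 0.0161). In the panel cells it was at 13.3 and 9.57 CPM against 20.3 and 18.3 CPM (-0.76, FDR = 0.0294).

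Within panel cells, the plasma-cell genes that were called were higher in Jarid2 KO than in Ezh2 KO, as Ighm was. Of 8 plasma-cell genes tested, 6 were higher in Jarid2 KO within panel cells while over all cells 0 were called in edgeR, with 4 at an unadjusted p under 0.05 and a list median of 0.13. Over all cells their summed level was 775 and 1000 CPM in Jarid2 KO and 1010 and 1550 CPM in Ezh2 KO, and the values of Jchain and Xbp1 were -0.03 and -0.09 (FDR = 0.968 and 0.236). Jchain, which joins IgM and IgA chains, was at 7150 and 9530 CPM in Jarid2 KO panel cells against 1240 and 3900 CPM in Ezh2 KO (1.88, FDR = 0.00632). Prdm1, the factor that drives plasma-cell fate, was at 19.3 and 34.3 CPM against 3.55 and 8.31 CPM (2.23, FDR = 0.000609). Xbp1, a secretory-pathway factor, differed by 1.56 and Igkc, the kappa light chain, by 2.61. Of 10 MHC class II genes, 4 were higher in Jarid2 KO panel cells, among them Cd74, the invariant chain, at 397 and 656 CPM against 51.6 and 103 CPM (2.82, FDR = 0.00101). Jchain, Igkc and Xbp1 fall outside the rule for named genes and were chosen after their values were seen. Igkc was also at 48.3 to 222 CPM in the remaining knockout cells, and the part that free RNA plays in these values was not tested. The panel set held 394 and 473 cells in Jarid2 KO and 2767 and 1622 in Ezh2 KO. Levels within the set, also those of Ighm, depend on how many other cells it holds. A difference in state of the panel cells cannot be told apart from such a difference in make-up, which was not tested.

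**Figure D3:**
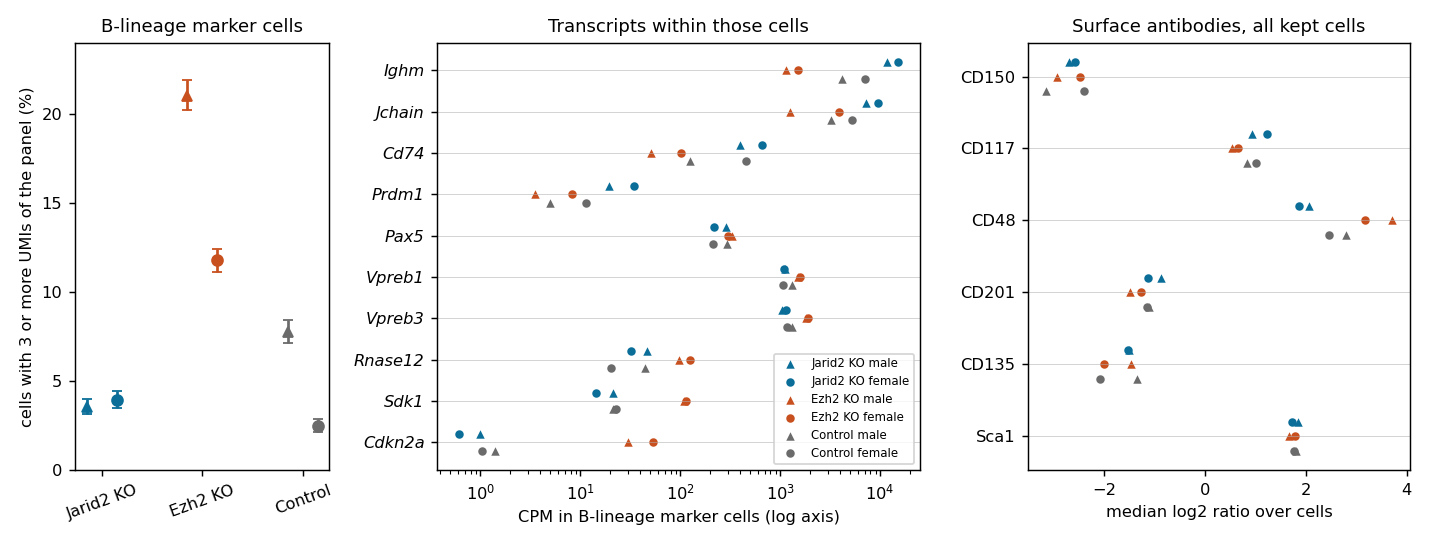
Left, percent of thinned cells with 3 or more panel UMIs per library, with 95% exact binomial intervals. Middle, CPM on a log axis within the panel cells. Right, median log2 ratio of each antibody over kept cells. Triangles are male and circles female libraries. The Ezh2 KO shares of 21.0% and 11.8% stand above the rest, Ighm and Prdm1 are highest in Jarid2 KO panel cells, and CD48 is highest in Ezh2 KO.

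Cdkn2a, which encodes the p16 and p19 cell-cycle brakes and is a classical Polycomb target, was nearly absent from Jarid2 KO. It was at 0.130 and 0.0760 CPM in Jarid2 KO, 9.46 and 9.34 CPM in Ezh2 KO, and 0.202 and 0.145 CPM in Control. The Ezh2 KO libraries stood far above both other genotypes, by -6.51 ± 0.22 for the difference between knockouts (FDR = 0.00378). Of its counts in Ezh2 KO, 98.6% came from panel cells in each library, where it was at 29.9 and 53.2 CPM against 0.996 and 0.617 CPM in Jarid2 KO panel cells. Outside the panel cells it was at 0.181 and 0.157 CPM in Ezh2 KO and 0.0747 and 0.0408 CPM in Jarid2 KO (-1.53, FDR = 0.254).

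In all, 5 of 7 CDK inhibitor genes were higher in Ezh2 KO and 0 in Jarid2 KO, with a median of -0.88. Cdkn1a, the p21 inhibitor, was at 8.44 and 7.45 CPM in Jarid2 KO, 23.9 and 25.8 CPM in Ezh2 KO, and 13.3 and 9.13 CPM in Control (-1.66 ± 0.16, FDR = 0.0195). Cdkn2c differed by -0.88 and Cdkn2d by -0.47, while Cdkn2b was below 1 CPM in every library. Without the panel cells the median was -0.31 and Cdkn2c was the 1 still called (-0.55, FDR = 0.0136). Without the male Ezh2 KO library 3 members were called.

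The genes of cell division that were called were also higher in Ezh2 KO. All 39 mitosis genes tested had a negative value, 19 passed and the median was -0.39. Birc5, which encodes survivin of the chromosomal passenger complex, was at 92.3 and 101 CPM in Jarid2 KO, 165 and 148 CPM in Ezh2 KO, and 105 and 95.8 CPM in Control (-0.69 ± 0.08, FDR = 0.0223). Cdk1, the mitotic kinase, differed by -0.55, Aurkb by -0.52 and Bub1b, a checkpoint kinase, by -0.51. Of 37 DNA replication genes, 4 passed (Rrm2, Pcna, Uhrf1 and Gins2), all higher in Ezh2 KO, with a median of -0.15. Without the panel cells the medians were -0.07 and -0.03 and 0 members of either list passed in edgeR, with 10 mitosis and 2 replication genes at an unadjusted p under 0.05. Called mitosis genes numbered 2 without the male Ezh2 KO library and 12 with female Jarid2 KO left out. For replication genes the counts were 0 and 1, and 11 without the female Ezh2 KO.

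The stem cell genes that were called lay on the other side. Of 30 HSC genes, 10 were higher in Jarid2 KO and 0 in Ezh2 KO, with a median of 0.27. Hlf, a stem cell transcription factor, was at 609 and 636 CPM in Jarid2 KO, 424 and 444 CPM in Ezh2 KO, and 504 and 498 CPM in Control. Control lay between the knockouts, which differed by 0.52 ± 0.04 (FDR = 0.0155). Prdm16, a regulator of stem cell maintenance, was at 66.0 and 71.6 CPM against 43.2 and 46.8 CPM (0.61 ± 0.05, FDR = 0.0136). Mecom (0.38), Meis1 (0.28), Tal1 (0.40), Tie1 (0.55), Vwf (0.57), Mllt3 (0.27) and Angpt1 (0.33) were among the others that passed. Without the panel cells the median was 0.14 and Prdm16 was the 1 still called (0.45, FDR = 0.045). Called members numbered 1 without the female Jarid2 KO library and 3 without the male Ezh2 KO library.

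Megakaryocyte genes gave 5 of 18 higher in Jarid2 KO and 0 in Ezh2 KO (median 0.22). Itgb3, the platelet fibrinogen receptor chain, was at 9.94 and 12.7 CPM in Jarid2 KO, 4.43 and 6.79 CPM in Ezh2 KO, and 7.24 and 10.0 CPM in Control (1.03 ± 0.09, FDR = 0.0161). It was the 1 member called without the panel cells, and 1 was called when either the female Jarid2 KO or the male Ezh2 KO library was left out, and 2 without the female Ezh2 KO. Of 19 erythroid genes 0 passed in edgeR (median 0.31), with 3 at an unadjusted p under 0.05, and their summed level ran from 941 to 1510 CPM in the 4 knockout libraries, highest in female Jarid2 KO. Without the male Ezh2 KO library 9 erythroid genes were called. Of 20 neutrophil and myeloid granule genes, Cst7 alone passed (-0.72, FDR = 0.0344), while 18 had a negative value (median -0.26). In the cells outside the panel 2 passed and the median was -0.41.

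The gene with the largest difference toward Jarid2 KO, among called genes with a mean of at least 10 CPM, was Stab2, a scavenger receptor for hyaluronan. Stab2 (chr10:86841194-87008038) was at 28.7 and 32.4 CPM in Jarid2 KO, 2.18 and 2.72 CPM in Ezh2 KO, and 1.48 and 1.62 CPM in Control. The Jarid2 KO libraries were far above the rest, by 3.64 ± 0.08 against Ezh2 KO (FDR = 0.00134) and also against Control (FDR = 0.00077), and Ezh2 KO was above Control by 0.66 (FDR = 0.034). Stab2 UMIs were found in 0.754% and 1.71% of Jarid2 KO cells and in 0.124% to 0.247% of cells in the other libraries. The difference was 3.45 without the panel cells.

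Stab2 had been placed in a list of T-cell and innate lymphoid genes that was written with earlier results of these data known. Of its 26 genes, 6 were higher in Jarid2 KO and 0 in Ezh2 KO, although the list's median was -0.07 and 14 values were negative. The count of 6 may thus be partly set by the choice of members. Icos, a T-cell costimulatory receptor, was at 11.8 and 11.7 CPM in Jarid2 KO, 4.48 and 3.26 CPM in Ezh2 KO, and 2.77 and 2.27 CPM in Control (1.62 ± 0.13, FDR = 0.0136). Il1rl1, the interleukin-33 receptor, was at 11.4 and 11.3 CPM against 4.39 and 3.08 CPM (1.61 ± 0.21, FDR = 0.0293). Gata3 (0.98), Bcl11b (1.41) and Zbtb16 (0.51), transcription factors of T and innate lymphoid cells, were the other members called. The T-cell receptor component Cd3e was at 0.0995 to 0.269 CPM in the knockout libraries, with no call, and the list's summed level was 350 to 373 CPM in Jarid2 KO and 291 to 297 CPM in Ezh2 KO. The part of rare lymphoid cells in these values was not tested. Without the panel cells 4 members were called, with female Jarid2 KO left out 2, and without either Control library 10.

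Other genes led the same direction. Pde1c, a cyclic nucleotide phosphodiesterase, was at 31.1 and 35.2 CPM in Jarid2 KO, 7.52 and 9.84 CPM in Ezh2 KO, and 27.2 and 30.5 CPM in Control. Here it was Ezh2 KO that stood apart (1.94 ± 0.07, FDR = 0.00389). Ccser1 showed the same arrangement, at 183 and 148 CPM in Jarid2 KO, 72.9 and 74.2 CPM in Ezh2 KO, and 162 and 129 CPM in Control (1.15 ± 0.10, FDR = 0.0144). Inpp4b, a phosphoinositide phosphatase, was called against Control in both knockouts, higher in Jarid2 KO and lower in Ezh2 KO (-0.30, FDR = 0.0338), at 121 and 141 CPM against 59.6 and 67.1 CPM in Ezh2 KO and 73.5 and 82.7 CPM in Control (1.05 ± 0.04, FDR = 0.00389). Sema3d (0.99), Col4a2 (0.86) and Pdgfd (0.76), which encode secreted or matrix proteins, were also among the 12 largest differences at a mean of at least 10 CPM.

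Mycn, a Myc-family factor, was at 45.7 and 54.1 CPM in Jarid2 KO, 29.6 and 34.3 CPM in Ezh2 KO, and 26.4 and 29.1 CPM in Control. Jarid2 KO was above both, by 0.64 ± 0.04 against Ezh2 KO (FDR = 0.0102) and with FDR = 0.0219 against Control. Of 11 Myc-family genes, Mxi1 was also higher in Jarid2 KO (0.23), and Mxd3, a Max partner, was higher in Ezh2 KO (-0.96).

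Imprinted genes gave 4 of 23 higher in Jarid2 KO and 0 in Ezh2 KO (median 0.23). Meg3, a maternally expressed noncoding RNA, was at 11.1 and 17.1 CPM in Jarid2 KO, 4.50 and 8.69 CPM in Ezh2 KO, and 4.70 and 6.53 CPM in Control (1.13 ± 0.13, FDR = 0.0217). Its neighbour Dlk1, at 1.77 and 1.84 CPM against 0.664 and 0.941 CPM, also passed (1.19 ± 0.18, FDR = 0.0346). Igf2r, a receptor that clears IGF2, passed at 0.54, and the noncoding Airn, which overlaps it on the opposite strand, passed at 0.93. No source used here gives the strand rule of the counting, so reads of Airn and Igf2r may not be separable. Without the panel cells Meg3 was the 1 list member called, and 0 were called without either Jarid2 KO library and 1 without the male Ezh2 KO library.

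Developmental genes known as Polycomb targets were mostly too low to test. Of 101 listed, 21 passed the filter on low counts, and a gene can pass through the group where it is high. Of these, 5 were higher in Ezh2 KO, namely Gfra1, Gfra2, Lhx2, Mab21l2 and Foxc1, and 1, Nkx2-3, was higher in Jarid2 KO. Without the panel cells 0 of 15 tested members passed in edgeR, with 7 at an unadjusted p under 0.05, and the median moved from -0.46 to -0.13. Lhx2, a homeobox factor, was at 0.0698 and 0.105 CPM in Jarid2 KO, 1.18 and 1.07 CPM in Ezh2 KO, and 0.0851 and 0.0817 CPM in Control (-3.67 ± 0.28, FDR = 0.0132). With any of the female Jarid2 KO or the 2 Ezh2 KO libraries left out, 3 members of this list were called. Nkx2-3 was at 56.8 and 55.5 CPM against 39.0 and 43.0 CPM (0.46 ± 0.06). Of 20 tested Hox genes, Hoxa7 (0.51 ± 0.04, FDR = 0.012) and Hoxa5 (0.59) were higher in Jarid2 KO and Hoxb7 (-2.18), below 1 CPM in every library, in Ezh2 KO. The value of Hoxb7 turned to 0.96 without the panel cells (FDR = 0.347). The fetal growth regulator Hmga2 was at 53.1 and 70.7 CPM in Jarid2 KO, 106 and 112 CPM in Ezh2 KO, and 36.5 and 43.9 CPM in Control (-0.83 ± 0.08, FDR = 0.0205), with Igf2bp3 on the same side (-0.45) over all cells but at 0.39 without the panel cells (FDR = 0.116).

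Pbx3, a homeobox cofactor, was at 47.7 and 44.3 CPM in Jarid2 KO, 118 and 113 CPM in Ezh2 KO, and 53.2 and 56.9 CPM in Control. Control lay with Jarid2 KO, and the difference of -1.33 ± 0.06 (FDR = 0.00547) was -1.23 without the panel cells. Bex4, an X-linked gene, differed by -0.89 ± 0.04 (FDR = 0.00567).

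Interferon-response genes gave 8 of 35 higher in Ezh2 KO and 1, Isg20, higher in Jarid2 KO (median -0.24). Ifi27l2a was at 9.43 and 11.5 CPM in Jarid2 KO, 62.3 and 42.3 CPM in Ezh2 KO, and 13.3 and 14.2 CPM in Control (-2.31 ± 0.21, FDR = 0.0166). Irf7, a factor that sustains the response, differed by -0.66, Oas2 by -1.01, Usp18 by -0.66 and Isg15 by -0.54. The median without the panel cells was -0.28, with 5 members called. Called members numbered 2 without the female Jarid2 KO library and 3 without the male Ezh2 KO library.

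Of 17 monocyte and macrophage genes, 6 were higher in Ezh2 KO and 1, Ly6c2, in Jarid2 KO (median -0.72). Irf8, a factor of the monocyte and dendritic lineages, was at 22.3 and 26.0 CPM in Jarid2 KO, 46.5 and 50.9 CPM in Ezh2 KO, and 36.7 and 35.4 CPM in Control (-1.01 ± 0.07, FDR = 0.0112). With the female Jarid2 KO or the male Ezh2 KO library left out 3 were called, and without the female Ezh2 KO 4. The complement genes C1qa, C1qb and C1qc, made by macrophages, were at 0.149 to 0.466 CPM in Jarid2 KO and 0.921 to 1.76 CPM in Ezh2 KO. Of 14 dendritic genes 3 were higher in Ezh2 KO, among them Spib (-2.64), and the list's summed level was 685 to 765 CPM in Jarid2 KO and 800 to 947 CPM in Ezh2 KO. The mast cell proteases Cma1 and Tpsb2 had 0 counts in both Jarid2 KO libraries and 693 and 187 counts over the Ezh2 KO libraries, which makes them at least 173-fold and at least 46.7-fold higher against a floor of 3 counts over the Jarid2 KO group. With 0 counts in Jarid2 KO, both genes could pass the filter on low counts only through other libraries. The counts are pooled over the Ezh2 KO libraries, and the number of cells behind them was not tested. Their fitted fold changes depend on the prior count and are not given as sizes.

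**Figure D4:**
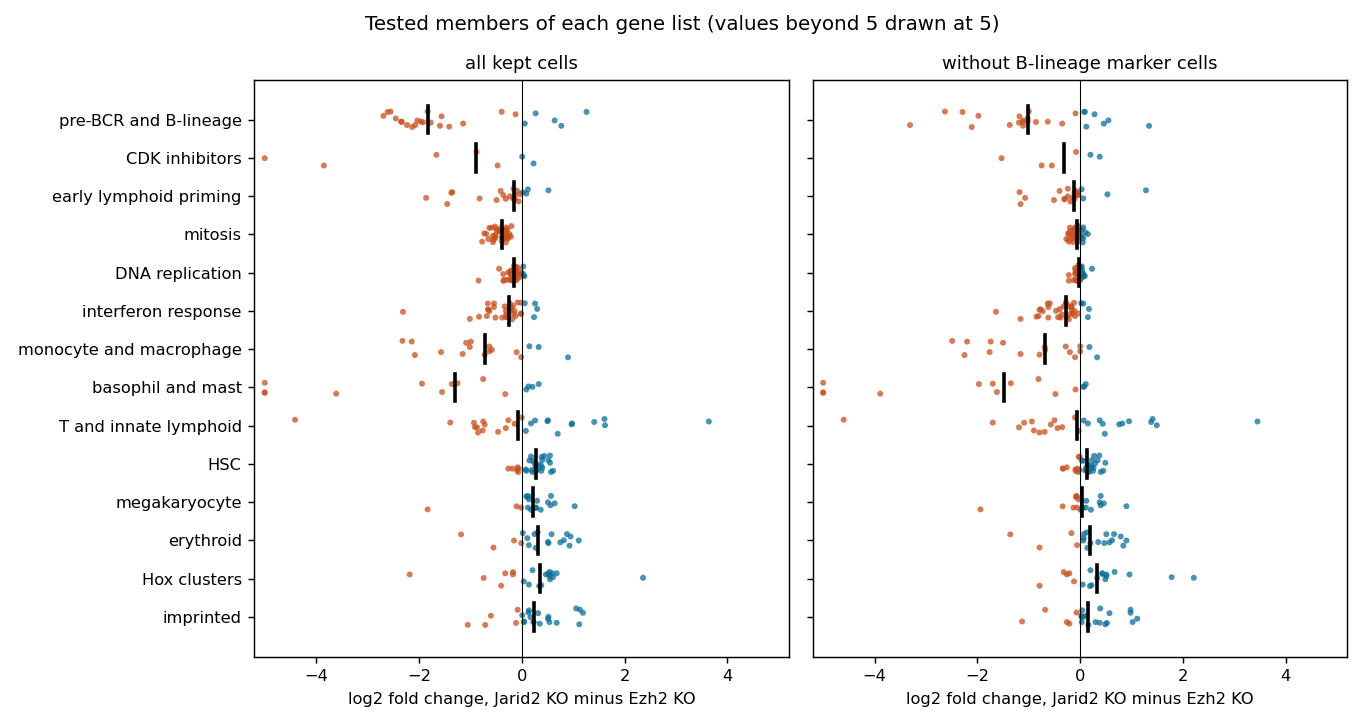
Log2 fold change (Jarid2 KO minus Ezh2 KO, x axis) of every tested member of 14 gene lists, with all kept cells on the left and without the B-lineage panel cells on the right, and a black bar at each list's median. The mitosis median moves from -0.39 to -0.07 and the B-lineage median from -1.83 to -1.02, while the interferon median is -0.24 and -0.28. Values beyond 5 are drawn at 5.

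Surface protein gave a readout that the gene counts do not use. For each cell an antibody count plus 1 was set against the geometric mean of all 6 antibody counts plus 1, as a log2 ratio. For CD48, carried by progenitors and lymphoid cells and low on stem cells, the median was 2.06 and 1.86 in Jarid2 KO, 3.71 and 3.17 in Ezh2 KO, and 2.80 and 2.46 in Control. The genotypes did not overlap, and the knockouts differed by -1.48, or by -1.29 without the panel cells, a fit chosen after seeing the data. The exact permutation p was 0.333, the smallest possible. The Cd48 transcript went the same way, at 66.3 and 51.6 CPM in Jarid2 KO, 123 and 104 CPM in Ezh2 KO, and 92.5 and 76.4 CPM in Control (-0.95 ± 0.05, FDR = 0.00567). Of 103 other tested genes that start within 5 Mb of Cd48 on chromosome 1 (RefSeq, GRCm38.p6), 13 (12.6%) were called, 11 of them higher in Ezh2 KO. Over all genes tested 6.46% were called, and 4.74% were higher in Ezh2 KO. One of the genes in this window, Ifi202b, an interferon-inducible gene with close copies nearby, had 361 and 750 counts in Ezh2 KO, 0 and 1 in Jarid2 KO and 0 in both Control libraries (FDR = 0.0102). This window and Ifi202b were chosen after the values had been seen, and the part of the region in the CD48 difference was not tested.

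CD117, the Kit protein, had a higher ratio in Jarid2 KO, with medians of 0.93 and 1.23 against 0.53 and 0.65. CD201, the protein C receptor of stem cells, had ratios of -0.87 and -1.13 against -1.48 and -1.28. Neither overlapped between the knockouts (differences of 0.49 and 0.38, exact permutation p = 0.333 each). As antibody counts per 1000 antibody UMIs, on a log2 scale, the differences were 0.96 for CD117, 0.92 for CD201 and -0.88 for CD48. Both scales are relative to all 6 antibodies, so a lower CD48 raises the others, and a rise of CD117 or CD201 cannot be told apart from that balance. The median counts per cell, which carry each library's antibody depth, were 257 and 289 in Jarid2 KO against 183 and 218 in Ezh2 KO for CD117. For CD201 they overlapped, at 70 and 52 against 42 and 54. The transcript of Kit differed by 0.21 (FDR = 0.0544). For CD150, CD135 and Sca1 (read through streptavidin) the medians overlapped, with differences of 0.07, 0.23 and 0.06, although on a scale of antibody counts per 1000 antibody UMIs they did not overlap (0.44, 0.56 and 0.64). The transcripts Slamf1, encoding CD150, and Flt3, encoding CD135, differed by -0.26 and -0.06 without passing (FDR = 0.171 and 0.457).

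Control helps to place each difference, although it is shared by both knockout contrasts, so the counts against it are given side by side and not compared. Against Control, 681 of 18357 genes (3.71%) were called in Ezh2 KO, 549 higher (2.99%) and 132 lower (0.719%), and 7 (0.0381%) in Jarid2 KO, all higher. The split for Jarid2 KO depended on the setting: DESeq2 called 269 genes (128 higher, 141 lower), no filter on low counts gave 39 (25 higher, 14 lower) and leaving out the male Control library 38 (23 higher, 15 lower). Of the 871 genes higher in Ezh2 KO than in Jarid2 KO, the Control mean lay nearer to Jarid2 KO for 751 (86.2%), and 422 were also called against Control in Ezh2 KO. Of the 315 higher in Jarid2 KO, Control lay nearer to Jarid2 KO for 196 (62.2%), 73 were also called in the Ezh2 KO contrast with Control and 7 in that of Jarid2 KO. The share of all genes tested for which Control lay nearer to Jarid2 KO is not given. Stab2, Icos, Mycn and Inpp4b are among the 7 called for Jarid2 KO.

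The transplant libraries, which the baseline comparison does not use, gave the same contrast in KSL cells from recipients. There 2014 of 15900 genes (12.7%) were called, 730 higher in Jarid2 KO (4.59%) and 1284 higher in Ezh2 KO (8.08%). Sex is not labelled there, and the sex make-up of the cells differed between these groups. Cells with Xist and no Y-linked UMI were 47.7% and 48.9% of Jarid2 KO cells and at most 0.0475% of Ezh2 KO cells. Cells with a Y-linked UMI and no Xist were 26.7% and 31.6% of the same Jarid2 KO libraries. Whether such a mix comes from the donors or from recipient cells was not tested. With male cells alone 1257 genes were called. Between 25.7% and 37.4% of barcodes in the 4 transplant knockout libraries exceeded the mitochondrial limit, against 2.82% to 5.82% at baseline.

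Of the 871 baseline genes higher in Ezh2 KO, 793 were tested after transplantation, 651 (82.1%) had the same direction and 311 were called in that direction, against 15 called in the other. Of the 315 higher in Jarid2 KO, 293 were tested, 205 (70.0%) had the same direction, 58 were called in it and 16 in the other. The share with the same direction over all genes tested in both experiments is not given, so these shares lack a comparator. In all, 400 genes were called in both experiments, which is 36.8% of the baseline calls and 20.3% of the transplant calls among 15608 genes tested in both. Cdkn2a differed by -6.92 after transplantation (FDR = 0.000486), with 0.0106 and 0.0410 CPM in Jarid2 KO and 3.80 and 2.79 CPM in Ezh2 KO. Vpreb3 differed by -3.71 (FDR = 0.000486), Pax5 by -2.98 and Dntt by -1.48.

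Some genes did not repeat. The experiments were also counted with different versions of the counting software, and the part of that was not tested. A test of the difference between the experiments called 927 of 19076 genes (4.86%), 1.9% shifted toward Jarid2 KO and 2.96% toward Ezh2 KO, among them 150 of the 871 and 55 of the 315. Mycn was higher in Jarid2 KO than in Ezh2 KO at baseline and lower than in Ezh2 KO after transplantation (-0.58, FDR = 0.0087). The difference between the experiments passed (FDR = 0.000752). After transplantation Mycn was at 17.7 and 18.3 CPM in Jarid2 KO, 27.4 and 26.3 CPM in Ezh2 KO, and 6.52 CPM in the 1 Control library. Both knockouts thus stood above that library. Icos also turned from 1.62 to -0.92 (FDR = 0.0156 after transplantation, 0.00155 for the difference). Mitosis genes, of which 19 were called at baseline, gave 0 of 39 after transplantation (edgeR, 2 at an unadjusted p under 0.05, median -0.02), and for Ccna2, Aurka and Aurkb the difference itself passed (FDR = 0.0462, 0.0206 and 0.0327). Bex4 and Pbx3 moved further apart, from -0.89 to -5.30 and from -1.33 to -3.14 (FDR = 8.51e-06 and 0.000281).

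**Figure D5:**
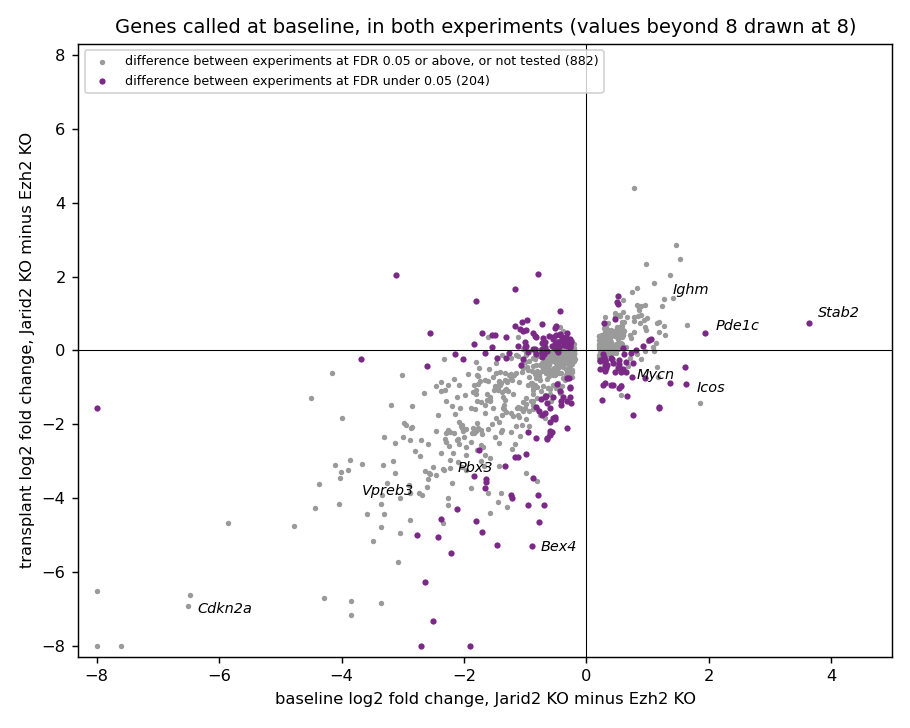
Transplant against baseline log2 fold change (Jarid2 KO minus Ezh2 KO) for the 1086 genes called at baseline and tested in both experiments. Purple points are genes whose contrast differed between the experiments at FDR under 0.05. Most points lie in the lower left and upper right quadrants, Cdkn2a and Vpreb3 low on both axes, while Mycn and Icos sit below 0 after transplantation.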

How the data were processed

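Gene and antibody UMI counts per cell barcode, as deposited, were whole numbers from Cell Ranger 7.2.0 (baseline) and 6.1.2 (transplant), per the file headers. The submitters' processing notes list Cell Ranger 3.1.0, Seurat 3.0, Partek and mm10, with no role given. The Chromium 3′ kit is given per the labels' protocols, and no source used here states the strand rule or whether intronic reads counted. Of 32285 genes in the files, 78 have a symbol that is not unique. H3K27me3 CUT&Tag samples were not analysed here.

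Counts of kept cells were summed per library. Median depth was 10968 to 13019 UMIs per cell at baseline. Doublets were not removed in the main fit. As an alternative the highest Scrublet scores were removed up to 0.8% per 1000 barcodes, because Scrublet's own threshold found 0 to 176 doublets per library. The main test was the quasi-likelihood test of edgeR 4.0.16 in R 4.3.3 (filterByExpr, TMM, genotype and sex, two-sided, all 6 baseline libraries), with Benjamini-Hochberg FDR under 0.05. Fold changes are log2, Jarid2 KO minus Ezh2 KO, with the SE taken as the size of the fold change over the square root of edgeR's F statistic. On simulated counts of this comparison for 18357 genes, 100 of 100 genes changed by log2 1 and 100 of 100 changed by log2 2 were recovered, with 8 false calls. The spread between the simulated libraries is not given here. Recovery there therefore does not give the power or the rate of false calls in the real libraries. In those, Ebf1 differed by more than log2 2 in size and did not pass. DESeq2 1.42.0 was an alternative.

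The numbers 1 and 2 mark male and female libraries, and sex pairs the libraries: deviations of same-sex libraries from their group means correlated at 0.703 (Control and Jarid2 KO), 0.489 (Control and Ezh2 KO) and 0.337 (Jarid2 KO and Ezh2 KO).

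Named genes were Jarid2, Ezh2 and sex genes, the 12 largest called differences and 5 smallest FDRs per direction (mean of at least 10 CPM, groups not overlapping, established symbol), and for each of 33 lists the called members and the 4 smallest p-values. The comparison, the gene lists and the panel were chosen with earlier results of these data known. Lists are described by counts and medians, without a test. Not every gene the rule takes is printed, and a few are not reported here.

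Alternatives were a stricter cell filter, no cell filter, doublet removal, no sex term, other size factors, other filters on low counts, DESeq2, the knockout libraries alone, each library left out, and removal of panel cells. Panel cells alone, and antibodies without panel cells, were added after the data had been seen.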

Additional observations from a re-analysis of the deposited data

Results flagged for a closer look

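For the genes named below, the difference between the knockouts at baseline differed from that after transplantation, in an edgeR quasi-likelihood test of that difference over 19076 genes (adjusted p under 0.05). Each value is the change of the log2 difference (Jarid2 KO minus Ezh2 KO) from baseline to transplant, so a negative value means a shift toward Ezh2 KO. The sex make-up of the cells differed between the transplant groups, and the experiments were counted with different Cell Ranger versions (7.2.0 and 6.1.2). The part of sex, of counting or of transplantation itself was not tested beyond the male-cells-only fit.

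Sex genes shifted as the sex make-up of the cells did: Xist by 12.86 and Ddx3y by -0.72. Among Polycomb genes the shift was 1.79 for Ezh2, from 0.30 to 2.08, and -0.58 for Bmi1. Of the leading genes, Stab2 by -2.93, Pde1c by -1.48, Inpp4b by -0.73, Airn by -0.81, Pdgfd by -1.09, Mycn by -1.21, Pbx3 by -1.81, Cd48 by 0.92 and Bex4 by -4.41 shifted. Baseline and transplant values were 3.64 and 0.75 for Stab2 and -0.89 and -5.30 for Bex4. Levels in the transplant knockout libraries were low for Stab2 (0.0538 to 0.371 CPM) and Pdgfd (0.392 to 0.532 CPM). They were also low for Pde1c (0.796 to 1.22 CPM) and Airn (1.82 to 2.09 CPM). Inpp4b was at 4.22 to 5.80 CPM there, against 59.6 to 141 CPM in the baseline knockout libraries.

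Over all genes tested, 1.9% shifted toward Jarid2 KO and 2.96% toward Ezh2 KO. Of 39 mitosis genes 3 shifted toward Jarid2 KO and 0 toward Ezh2 KO, of 37 replication genes 1 and 0, and of 7 CDK inhibitors 2 and 1, among them Cdkn2c by 1.36, Cdkn1a by 1.59, Rrm2 by 0.89, Ccna2 by 0.57, Aurka by 0.58 and Aurkb by 0.60. Of 26 T-cell and innate lymphoid genes 1 shifted toward Jarid2 KO and 5 toward Ezh2 KO, and of 22 early lymphoid genes 0 and 3. For 25 B-lineage genes the counts were 2 and 0, and for 9 plasma-cell genes 2 and 0. Among these, Il1rl1 shifted by -2.06, Icos by -2.53 and Xbp1 by 0.79. Of 30 HSC genes 9 shifted toward Ezh2 KO and 0 toward Jarid2 KO, and of 18 megakaryocyte genes 5 and 1, among them Vwf by -1.16, Mllt3 by -1.21, Prdm16 by -0.70, Angpt1 by -0.72, Rab27b by -0.96 and Itgb3 by -0.75. Toward Jarid2 KO shifted 6 of 17 monocyte and macrophage genes, 5 of 20 neutrophil and granule genes and 1 of 14 basophil and mast cell genes, and 0 genes of these lists shifted toward Ezh2 KO. They include Cst7 by 0.65, Irf8 by 1.24, C1qa by 2.04 and Cma1 by 9.43, where the fitted value of Cma1 rests on libraries with 0 counts, depends on the prior count and is not a size. Toward Ezh2 KO shifted 3 of 11 fetal program genes, 8 of 23 imprinted genes and 2 of 26 developmental Polycomb targets, with 0, 0 and 1 toward Jarid2 KO, among them Hmga2 by -0.69, Dlk1 by -2.74, Igf2r by -0.90, Mab21l2 by -4.91 and Nkx2-3 by -1.03. The remaining genes were Isg20 by -0.55, Cxcr4 by 0.85, Ncam1 by -0.94, Tgfbr3 by -1.01 and Eng by -0.48.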

How the results depend on the processing

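Against 1186 genes called between the baseline knockouts, removing doublets, the stricter and absent cell filters, DESeq2 size factors, other filters on low counts, the 4 knockout libraries alone and DESeq2 gave 876 to 1767. Fits without the replicate block for sex gave 87 (12 higher in Jarid2 KO, 75 in Ezh2 KO), against 1 for Jarid2 KO and 19 for Ezh2 KO against Control, and 450 for the difference between experiments. Fits without the panel cells gave 143, 12 and 101 for the 3 baseline contrasts, and with panel cells alone 717 between the knockouts and 391 for Ezh2 KO against Control. Leaving out single libraries gave 0 to 1288 calls between the knockouts, 2 to 38 for Jarid2 KO against Control, 176 to 623 for Ezh2 KO against Control, 908 to 2063 after transplantation and 287 to 954 for the difference between experiments.

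Against Control, no filter on low counts gave 39 and 1171 calls for Jarid2 KO and Ezh2 KO, DESeq2 gave 269 and 1527, and a minimum of 10 CPM gave 3 for Jarid2 KO. After transplantation the strict cell filter gave 1315, a minimum of 10 CPM 428 and male cells alone 1257, and the difference between experiments gave 489, 354 and 562. The cause of these changes was not tested.

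Of 150 genes listed individually, 136 were called, and 127 kept the call under doublet removal, both cell filters and the other size factors. Without the replicate block 116 lost it, without the panel cells 93 of 133 tested and without the male Jarid2 KO library 136. Signs turned within panel cells for Xist (0.06), Ddx3y (0.21), Uty (-0.05), Mycn (-0.06), Rag2 (0.01), Pou2af1 (0.11), Bcl11b (-0.56), Tal1 (-0.05), Nfe2 (-0.06), Klf4 (0.12), Cox6a2 (0.18), Klf2 (0.20), Eng (-0.29), Lifr (0.69), Jchain (1.88) and Xbp1 (1.56). They turned without panel cells for Eif2s3y (0.01), Cd79b (0.12), Igf2bp3 (0.39), Hoxb7 (0.96), Jchain (0.53) and Cd74 (-0.03). Leaving out each library in turn gave values of both signs: Ddx3y from -0.16 to 0.03, Uty from -0.51 to 0.77, Eif2s3y from -1.04 to 0.47, Kdm5d from -0.47 to 1.00 and Jchain from -0.46 to 0.51. The difference in the panel-cell share and the antibody differences kept their sign under every alternative run. With 2 libraries a group, a share or antibody difference cannot reach an exact p below 0.333, and genes below about 1 CPM rest on few counts.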

Other observations

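Among 29 immediate early and stress genes, 3 were higher in Ezh2 KO (Klf2, Zfp36 and Klf4) and 0 in Jarid2 KO, with a median of -0.08. Klf2, a factor of lymphocyte quiescence, was at 9.91 and 9.64 CPM in Jarid2 KO, 16.6 and 14.6 CPM in Ezh2 KO, and 9.45 and 8.67 CPM in Control (-0.68 ± 0.07, edgeR FDR = 0.0208). Among 28 niche adhesion and homing genes, Cd48, Ncam1 and Cxcr4 were higher in Ezh2 KO and Cd82 was higher in Jarid2 KO. Ncam1, a neural adhesion molecule, was at 3.13 and 3.06 CPM in Jarid2 KO, 8.78 and 12.4 CPM in Ezh2 KO, and 2.74 and 3.23 CPM in Control (-1.76 ± 0.15, FDR = 0.0147). Cxcr4, the receptor that holds stem cells in the marrow, differed by -0.43.

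Of 32 growth factor receptors and related genes, 3 were higher in Jarid2 KO (Il1rl1, Igf2r and Eng) and 4 in Ezh2 KO (Gfra1, Gfra2, Lifr and Tgfbr3). Without the B-lineage panel cells 0 of these passed in edgeR, with 14 list members at an unadjusted p under 0.05. Single members passed in 4 further lists: Il5ra of 7 eosinophil genes (1.09), Pecam1 of 10 endothelial and stromal genes (-0.24), Uhrf1 of 13 DNA methylation genes (-0.36) and H2-Ob of 10 MHC class II genes over all cells (-0.29). Of 6 genes for stained surface markers Cd48 passed. Of the 10 panel genes, 7 passed, all higher in Ezh2 KO (median -2.28), with a summed level of 457 and 453 CPM in Jarid2 KO, 3060 and 1650 CPM in Ezh2 KO, and 1050 and 313 CPM in Control. The basophil and mast cell list held 14 tested genes, of which Cma1 and Tpsb2 passed (median -1.31).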
